A study of Mus musculus with 6 samples.

Results

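The 37 genes described here encode the machinery that copies DNA in S phase, from the proteins that mark replication origins to the enzymes that supply nucleotides. They were taken by symbol from the deposited expression table, and all 37 were found among its 23420 genes. By the table's coordinates (build mm10, per the submitters' processing notes), the 37 genes lie on 13 chromosomes. Those the results turn on most are Gins3 (chr8:95633559-95645059, 3 exons), Prim1 (chr10:128015215-128030030, 13 exons), Pold1 (chr7:44532744-44548815, 27 exons) and Mcm7 (chr5:138164589-138171862, 15 exons). The table holds RNA sequencing values of satellite cells of mouse skeletal muscle, which are the stem cells that repair it, from 3 Dnmt1 KO and 3 Control samples. Per the labels, all samples came from C57BL/6 male mice, 7 weeks old, bred from the lines Pax7-CreERT2 and Dnmt1 flox, with tamoxifen or vehicle given on 5 days in a row. Pax7-CreERT2 places a tamoxifen-dependent Cre recombinase under Pax7, so that deletion is aimed at cells that use Pax7. The labels leave unsaid whether a Control animal carried Cre or received tamoxifen, whether each sample is a different animal, and how long the cells were kept before RNA extraction. A p-value here therefore reflects sample-to-sample spread, part of which may be technical.

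A cell copies its genome once per division. The origin recognition complex, with Cdc6 and Cdt1, loads the ring-shaped MCM helicase onto DNA before S phase, and Cdc45 and the GINS complex then switch the helicase on. DNA polymerases and primase build the new strands, a clamp made of PCNA keeps the polymerases on the template, and ligase and nuclease join the short pieces of the lagging strand. Transcription of many of these genes is driven by E2F factors as cells pass from G1 into S phase. DNMT1, the enzyme targeted in the KO cells, works at the same place: it follows the replication fork, binds PCNA and copies methyl marks onto the new strand. In muscle, satellite cells replicate their DNA after they leave quiescence and stop doing so when they differentiate.

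E2F factors bind a short core word in promoters. Its 4 forms, which are the word TTCCCGC, its variant written as TTCGCGC, the further variant TTGCCGC and the variant spelled TTGGCGC, were searched on both strands in RefSeq promoter windows (build GRCm38.p6) that run from 250 bases before to 50 bases after each transcription start. Overlapping words were counted as 1 site. Windows, more than 1 for a few genes, were matched by symbol for 31 of the 37 genes, and not for Gins1, Gins2, Gins4, Mcm4, Pole and Rfc2. At least 1 site was found in 20 of the 31, or 64.5%, against 19.9% of the 9349 tested genes with a window, and 10.9% of all 27025 genes with one. Sites numbered 2 or more in 8 of the 31 genes, or 25.8%, against 2.63% of the tested genes. A match is a run of letters and not a measured binding site. The 150 bases just before the start are printed, 5′ to 3′ on the gene's strand, for 5 members of 5 different role groups, with the sites in capitals. They were chosen because each has a site in this stretch, and Mcm6 shows a pair of identical ones.
Mcm6 (chr1:128359706-128359855, minus strand): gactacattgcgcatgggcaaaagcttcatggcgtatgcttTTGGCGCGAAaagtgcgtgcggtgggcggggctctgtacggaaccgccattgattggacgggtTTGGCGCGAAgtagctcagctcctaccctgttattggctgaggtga
Gins3 (chr8:95633409-95633558, plus strand): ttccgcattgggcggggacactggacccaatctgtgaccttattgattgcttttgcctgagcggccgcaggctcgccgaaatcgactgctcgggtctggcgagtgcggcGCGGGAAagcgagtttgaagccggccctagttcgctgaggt
Prim1 (chr10:128015065-128015214, plus strand): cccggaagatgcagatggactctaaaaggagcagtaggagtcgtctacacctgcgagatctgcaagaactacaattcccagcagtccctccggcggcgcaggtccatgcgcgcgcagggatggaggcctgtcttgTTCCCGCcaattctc
Rrm1 (chr7:102441545-102441694, plus strand): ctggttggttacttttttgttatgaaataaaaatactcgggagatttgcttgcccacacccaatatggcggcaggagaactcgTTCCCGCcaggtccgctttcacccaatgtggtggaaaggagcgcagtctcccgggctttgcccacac
E2f8 (chr7:48881597-48881746, minus strand): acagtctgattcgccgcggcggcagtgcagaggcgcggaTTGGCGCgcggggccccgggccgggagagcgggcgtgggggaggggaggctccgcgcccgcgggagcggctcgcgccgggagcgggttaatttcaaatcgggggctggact

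The Mcm6 sites begin 109 and 46 bases before the start, and each is read by the search on both strands. Another lies 24 bases after the start. The single sites begin 41 bases before the start in Gins3, 15 in Prim1, 67 in Rrm1 and 111 in E2f8. No site lay in the windows of Pcna, Mcm2, Mcm10, Cdc45, Orc2, Orc6, Rfc5, Rpa1, Tk1, Tyms and E2f1. RefSeq starts can differ from the deposited gene coordinates. The E2f1 window (chr2:154569377-154569676) lies inside the deposited gene, which ends at 154569852, so the bases upstream of that end were not searched. The E2f8 window (chr7:48881547-48881846) lies outside the deposited gene, which ends at 48881041.

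Every one of the 37 replication genes had a negative log2 fold change in Dnmt1 KO against Control, but the differences were small and no gene passed the test. The values are read counts multiplied by 1 factor per library, as deposited, and are called scaled reads here. Groups were compared with limma on log2(value + 1), with p-values adjusted by Benjamini-Hochberg over 12591 genes at a threshold of 0.05. By that test 0 of the 37 were called, where 1.76% of all tested genes were called in either direction, 0.0953% lower and 1.67% higher. At an unadjusted p under 0.05, 8 of the 37 were lower (background 4.8%) and 0 were higher (background 10.7%). Run on whole reads, edgeR and DESeq2 also called 0 of the 37, where they called 0.0794% and 0.143% of all tested genes lower. Lower at an unadjusted p under 0.05 were 11 of the 37 by edgeR (background 5.46%) and 7 by DESeq2 (background 2.89%). The median log2 fold change of the 37 genes was -0.31, with a range of -0.88 to -0.08, beside a median of 0.02 over all genes tested. Negative values made up 47.6% of all tested genes. Among the 6553 genes whose Control mean lay within the range of the 37, a comparison chosen after the values were seen, the share was 57.7% and the median -0.06. In 7 genes all KO values lay below all Control values, beside 7.81% of all tested genes, and in 0 genes all KO values lay above, beside 13.4%. In bulk RNA, fewer cells in S phase and less RNA per cell cannot be told apart.

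The test's intervals show what sizes of change remain possible. The upper end of the 95% interval lay below 0 for 8 genes, and the highest upper end, that of Gins2, was 142% of the Control level. The lower end reached 50% of Control or less for 11 genes and was lowest, at 35.2%, for Gins3. The authors' deposited table has its own test of each gene, with 0 of the 37 at a q-value under 0.05, where 1.5% of all genes were, and a lowest q-value of 0.331, for Gins3.

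**Figure D1:**
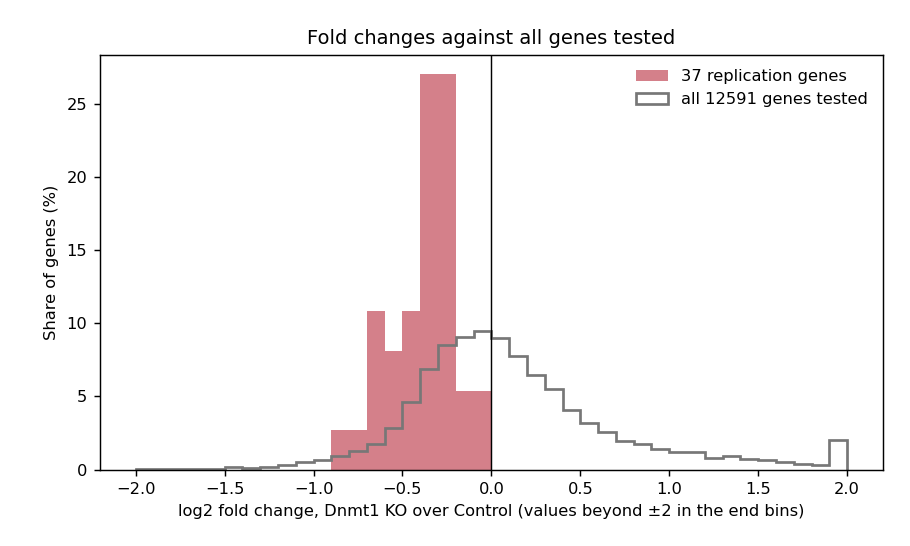
Share of genes (%, vertical axis) in bins of log2 fold change, Dnmt1 KO over Control (horizontal axis), for the 37 replication genes (filled) and all 12591 genes tested (outline). The 37 genes lie between -0.88 and -0.08, all left of 0, and within the range of the outline, which reaches beyond them on both sides.

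The target of the deletion checked the labels. Dnmt1 had 74.6, 36.1 and 81.2 scaled reads in the KO libraries, against 614, 539 and 655 in the Controls, and fell (log2 fold change -3.29, adjusted p = 0.00121). Total reads were 954786 to 1347051 in the KO libraries and 1403242 to 2021725 in the Controls. All 37 genes were above 0 in all 6 libraries, and together they took 0.426% to 0.623% of the reads in the KO libraries and 0.581% to 0.708% in the Controls, which overlap. The lowest single count was 12 reads, so the least abundant genes carry a large counting error. Pax7, the defining factor of satellite cells, was at 64.5, 58.2 and 66.5 in the KO libraries and at 124, 99.04 and 120.3 in the Controls (adjusted p = 0.0441). Myod1, a factor of activated satellite cells, was at 1394, 1096 and 1208.5 in the KO libraries and at 1534, 1704 and 1451 in the Controls (adjusted p = 0.331). These 2 do not stand for all myogenic markers. Of 10 listed, 9 were tested, with 4 negative and 5 positive log2 fold changes and a median of 0.09. Only 1, Pax7, was called.

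The 5 origin licensing genes overlapped between the groups in every case. Orc2, a core subunit of the origin recognition complex, had 145, 139 and 174 scaled reads in the KO libraries, against 188, 159 and 219 in the Controls. At a log2 fold change of -0.30 (SE 0.17, adjusted p = 0.446), KO replicate 3 lay above Control replicate 2. Orc1, the subunit that human cells degrade after G1, had 17.2, 28.1 and 33.2 in the KO libraries, against 38.1, 25.7 and 40.8 in the Controls (log2 fold change -0.42, SE 0.31, adjusted p = 0.554). Its lowest value came from 12 reads. For Orc6, Cdc6 and Cdt1 the lowest Control value lay in replicate 2 and was close to the lowest KO value. The log2 fold changes of these 3 were -0.22, -0.37 and -0.21, with adjusted p of 0.623 to 0.694.

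The 6 subunits of the MCM hexamer, the ring that unwinds DNA, all had negative fold changes, and 3 of them kept the groups apart. Over all tested genes, 7.81% had all KO values below all Control values. Mcm7 had 389, 254 and 416 scaled reads in the KO libraries, against 575, 434 and 527 in the Controls. Every KO library lay below every Control library, at a log2 fold change of -0.56 (SE 0.20, adjusted p = 0.226). Mcm2 had 268, 178 and 310.1 in the KO libraries and 332, 319 and 362 in the Controls (log2 fold change -0.46, SE 0.20, adjusted p = 0.313). Mcm6 had 423, 299.996 and 425 in the KO libraries and 525, 438 and 537 in the Controls (log2 fold change -0.40, SE 0.17, adjusted p = 0.309). In all 3 of these subunits the groups did not overlap, but KO replicate 3 lay close below Control replicate 2. The other 3 subunits overlapped. Mcm5 had 348, 203 and 391 scaled reads in the KO libraries and 411, 322 and 449 in the Controls (adjusted p = 0.507). Mcm3 had 389, 239.8 and 382 in the KO libraries and 436, 338 and 499.9 in the Controls (adjusted p = 0.485). Mcm4 had 299.6, 261 and 399 in the KO libraries and 375, 330.5 and 409 in the Controls (adjusted p = 0.567). In all 6 subunits the lowest library was KO replicate 2. Of the words of 50 bases in Mcm7 transcripts, 18.1% also occur in other genes, the microRNA genes inside Mcm7 and Gm5487 among them. The other subunits shared at most 1.51%. Whether shared words affected the Mcm7 counts was not tested.

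**Figure D2:**
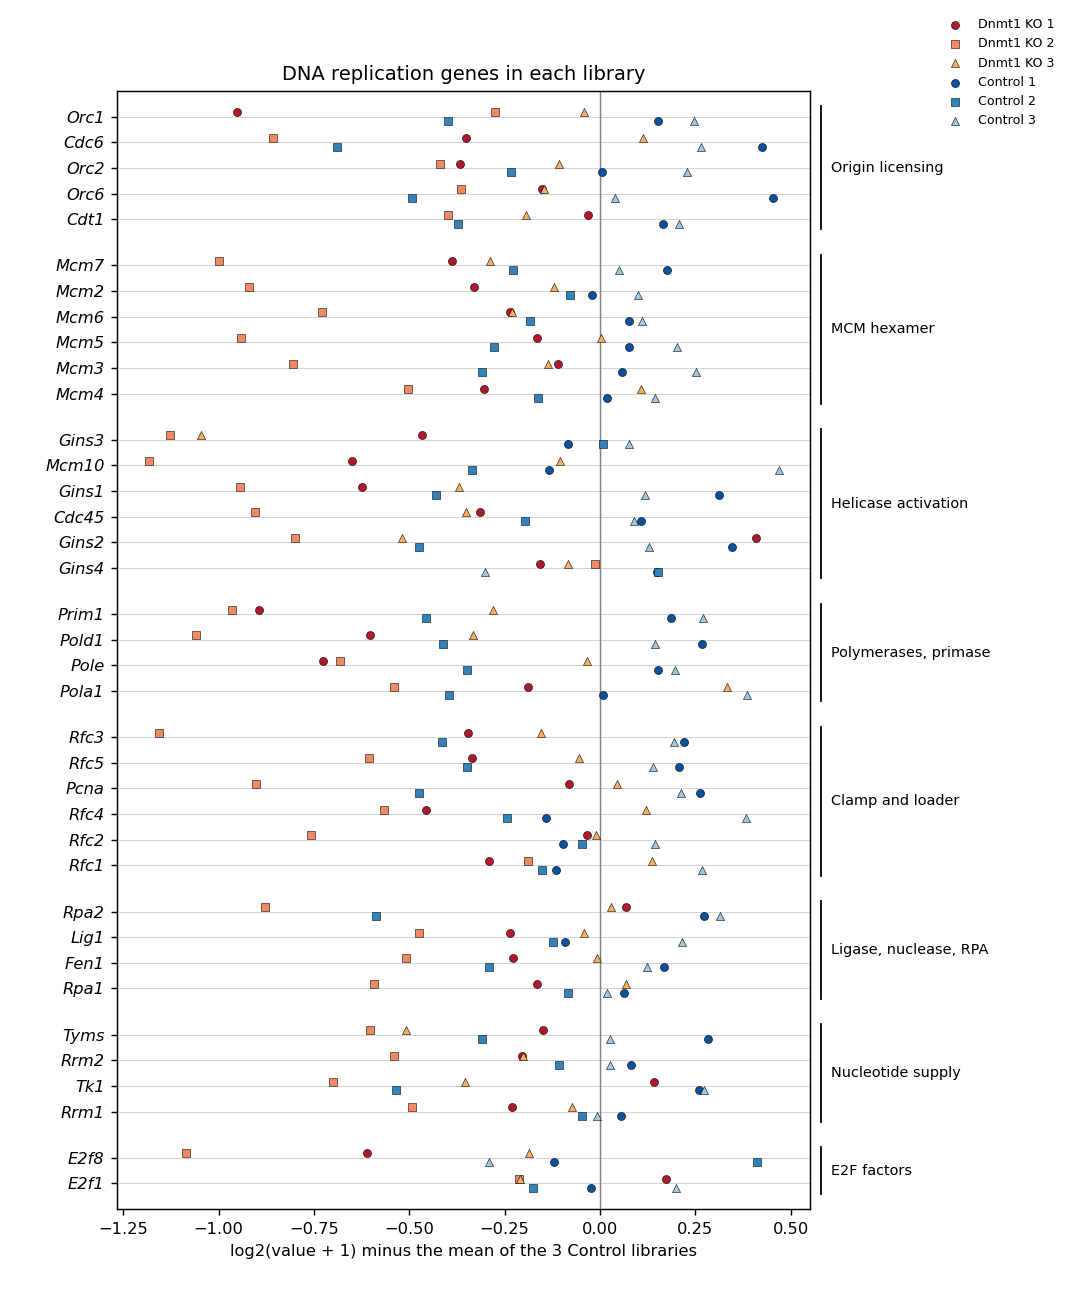
Each of the 37 replication genes in each library, as log2(value + 1) minus the mean of the 3 Control libraries (horizontal axis), grouped by role; warm symbols are the Dnmt1 KO libraries (upper points of a row) and blue symbols the Controls. KO replicate 2 (squares) is the lowest library in 32 of the 37 genes, beside 21.3% of the 10411 genes with a mean of at least 5. Control replicate 2 (blue squares) lies left of the other Controls in most rows.

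Genes that switch the helicase on held the lowest fold change of the 37. Gins3, a subunit of the GINS complex that joins the helicase at the fork, had 24.4, 15.1 and 15.9985 scaled reads in the KO libraries, against 32.1, 34.3 and 36.0 in the Controls. The means were 18.5 ± 5.13 in KO and 34.1 ± 1.93 in Control (SD, n = 3 each), with a fitted log2 fold change of -0.88 (SE 0.28, adjusted p = 0.169). The KO values rest on 17, 15 and 13 reads. Cdc45, which bridges GINS and the MCM ring, had 74.6, 49.2 and 72.6 in the KO libraries and 100.3, 80.9 and 98.9 in the Controls (log2 fold change -0.52, SE 0.21, adjusted p = 0.266). In Cdc45, as in Gins3, all KO values lay below all Control values (background 7.81% of all tested genes). Mcm10, a factor needed to start the assembled helicase, had 83.2, 57.2 and 122 in the KO libraries and 119, 104 and 182 in the Controls, so KO replicate 3 lay inside the Control range (log2 fold change -0.65, SE 0.29, adjusted p = 0.324). Gins1 had 21.5, 17.1 and 25.8 in the KO libraries and 42.1, 24.8 and 36.6 in the Controls (log2 fold change -0.65, SE 0.30, adjusted p = 0.332). Gins4, of the same complex, had 44.4, 49.2 and 46.8 scaled reads in the KO libraries and 55.2, 55.2 and 40.1 in the Controls, with the lowest of all values in a Control (log2 fold change -0.08, SE 0.21, adjusted p = 0.884). Gins2, which overlaps 118 exon bases of Gse1 on the other strand, had a log2 fold change of -0.30 with the widest error of the 37 (SE 0.36, adjusted p = 0.730). Whether the GINS subunits differ from each other in their response was not tested.

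Primase and the polymerases gave the next lowest values. Prim1, the catalytic subunit of primase, which lays down the RNA primers, had 55.9, 53.2 and 86.1 scaled reads in the KO libraries, against 119, 76.2 and 127 in the Controls (log2 fold change -0.71, SE 0.26, adjusted p = 0.217). Pold1, the catalytic subunit of the polymerase that copies mainly the lagging strand, had 77.4, 56.2 and 93.5 in the KO libraries and 142, 88.6 and 131 in the Controls (log2 fold change -0.67, SE 0.24, adjusted p = 0.225). In both genes KO replicate 3 lay above Control replicate 2 and below the other Controls. Without Control replicate 2 all 37 genes were negative, and these 2 were the ones called lower. Prim1 was then lower by 0.94 on the log2 scale (adjusted p = 0.0295) and Pold1 by 0.87 (adjusted p = 0.0368). In that setting 0.916% of all tested genes were called lower. For Pole, the leading-strand polymerase, KO replicates 1 and 2 lay below all Controls and replicate 3 did not, at a log2 fold change of -0.48 (adjusted p = 0.354). Pola1, which extends the primers, is the X-linked member of the 37. It had 123, 96.3 and 177 in the KO libraries and 141, 107 and 184 in the Controls (log2 fold change -0.13, adjusted p = 0.842), and the ranges overlapped over most of their length.

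The sliding clamp and its loader overlapped between groups in every gene. Pcna, the clamp itself, had 541, 306 and 591 scaled reads in the KO libraries, against 686, 411 and 664 in the Controls, with means of 479 ± 152 in KO and 587 ± 153 in Control (SD, n = 3 each). The spread within each group was larger than the difference between them (log2 fold change -0.31, SE 0.27, adjusted p = 0.621). Replicate 2 was the lowest library of both groups. The gene Pcna-ps2 shares 19.1% of the 50-base words of Pcna. Rfc3, a subunit of the loader RFC, had 43.0, 24.1 and 49.2 in the KO libraries and 64.2, 40.9 and 62.9 in the Controls (log2 fold change -0.55, SE 0.31, adjusted p = 0.426). Rfc5, another small subunit, had 78.9, 65.2 and 96.0 in the KO libraries and 115, 78.1 and 109.9 in the Controls (log2 fold change -0.33, SE 0.22, adjusted p = 0.501). Rfc1, the large subunit, had 161, 173 and 217 in the KO libraries and 182, 177 and 237 in the Controls (log2 fold change -0.11, SE 0.18, adjusted p = 0.799). Rfc2 and Rfc4 had log2 fold changes of -0.27 and -0.30 (adjusted p of 0.623 and 0.621), and Rfc4 overlaps 160 exon bases of Eif4a2 on the other strand.

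Genes that finish the lagging strand and cover single-stranded DNA lay closest together, with log2 fold changes of -0.26 to -0.23 in all 4. Lig1, the ligase that seals Okazaki fragments, had 185, 157 and 212 scaled reads in the KO libraries, against 205, 199.985 and 253 in the Controls (SE 0.17, adjusted p = 0.517). Its exons overlap 116 bases of 6330408A02Rik on the other strand. Fen1, the nuclease that trims the flaps between fragments, had 123, 101 and 144 in the KO libraries and 163, 118 and 158 in the Controls (SE 0.19, adjusted p = 0.569). Rpa1 and Rpa2, subunits of the protein that coats single strands, had adjusted p of 0.569 and 0.733. In Rpa1, KO replicate 3 at 428 scaled reads was above all 3 Controls, which lay at 386 to 427.

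Nucleotide supply held the most abundant of the 37 genes. Rrm2, the S phase subunit of ribonucleotide reductase, which makes deoxynucleotides, had 1796, 1423 and 1800.5 scaled reads in the KO libraries, against 2188, 1921 and 2107 in the Controls. Its partner Rrm1 had 588, 489.6 and 655 in the KO libraries and 716, 668 and 685 in the Controls. In both genes all KO values lay below all Control values (background 7.81% of all tested genes). The log2 fold changes were -0.31 (SE 0.16, adjusted p = 0.403) for Rrm2 and -0.27 (SE 0.15, adjusted p = 0.441) for Rrm1. Rrm1 had the smallest error of the 37 genes. Tyms, which makes thymidylate, had 108, 78.3 and 83.7 in the KO libraries and 145, 96.2 and 122 in the Controls (log2 fold change -0.42, SE 0.20, adjusted p = 0.366). For Tk1, the thymidine salvage kinase, the log2 fold change came to -0.30 (SE 0.27, adjusted p = 0.630), and 88 of its exon bases lie opposite Afmid.

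The list holds 2 E2F factors of opposite roles, and both overlapped between the groups. E2f1, an activator of S phase genes, had 64.5, 49.2 and 49.2 scaled reads in the KO libraries, against 56.2, 50.5 and 65.7 in the Controls, and was the gene nearest to no difference (log2 fold change -0.08, SE 0.21, adjusted p = 0.883). E2f8, a repressor that is itself made in S phase, had 113, 81.3 and 153 in the KO libraries and 159, 231 and 142 in the Controls (log2 fold change -0.63, SE 0.25, adjusted p = 0.271). Its highest value was in Control replicate 2, the Control library with the lowest mean log2(value + 1) of the 37 genes, at 6.95. Whether E2f1 and E2f8 differ in their response was not tested.

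**Figure D3:**
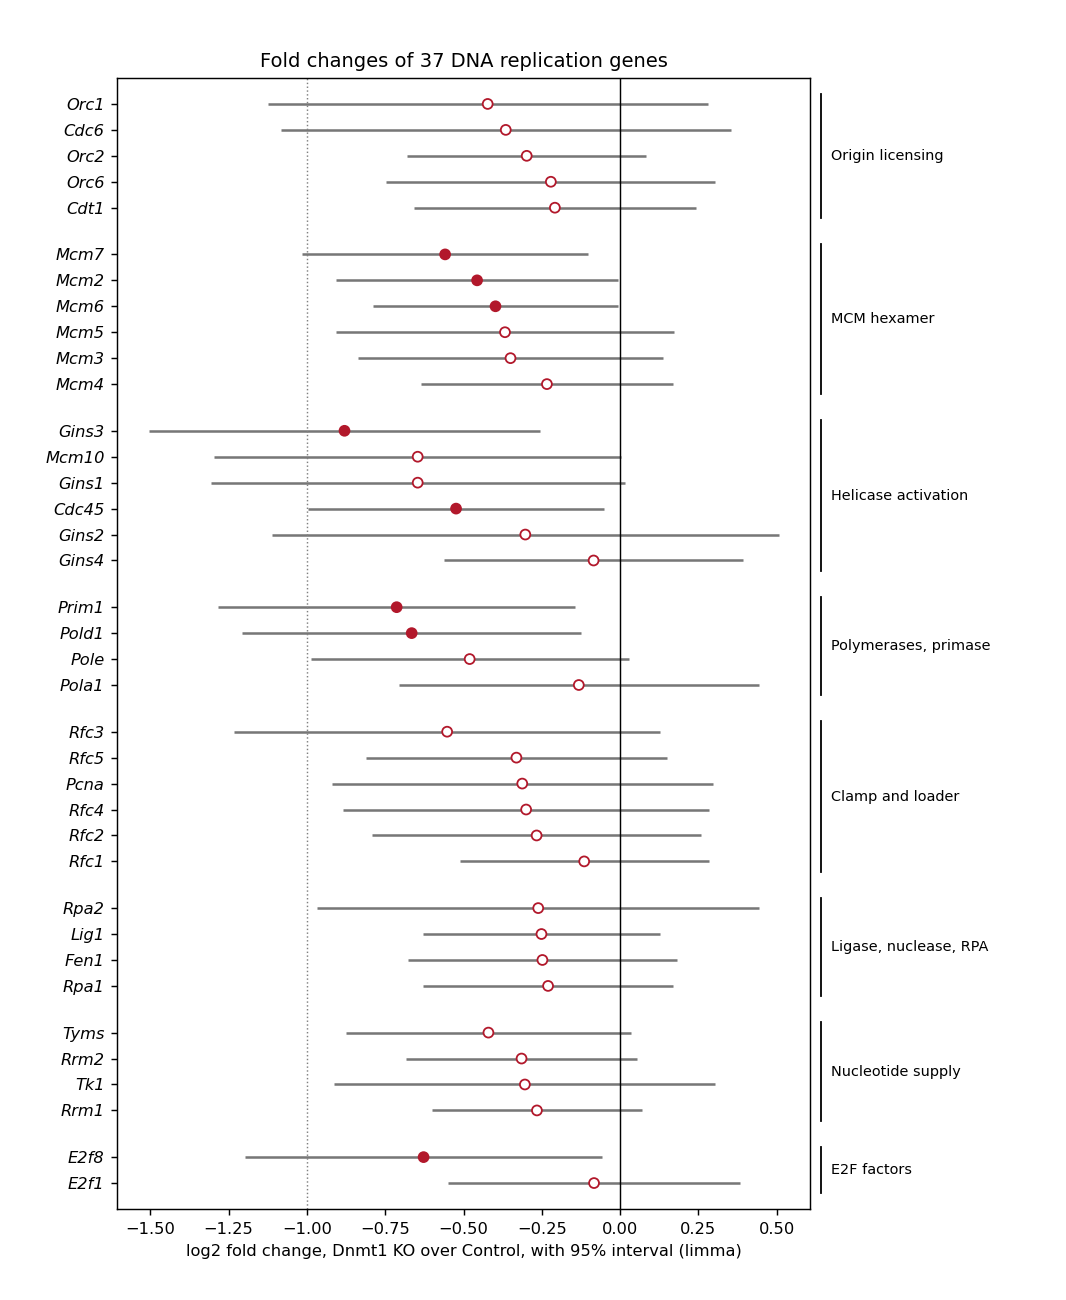
Log2 fold change of each of the 37 replication genes, Dnmt1 KO over Control, with the 95% interval of the limma fit (horizontal axis), grouped by role; filled points have an unadjusted p under 0.05 and the dotted line marks a log2 fold change of -1. The 8 filled points, Gins3 at -0.88 the lowest, are the genes whose intervals end below 0.

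The difference between groups was carried unequally by the libraries. The mean log2(value + 1) of the 37 genes was 6.93, 6.52 and 7.07 in KO replicates 1, 2 and 3, and 7.33, 6.95 and 7.37 in Control replicates 1, 2 and 3. The group means were 6.84 ± 0.29 in KO and 7.21 ± 0.23 in Control (SD, n = 3 each), a difference of -0.37, and KO replicate 3 lay above Control replicate 2. KO replicate 2 was the lowest of the 6 libraries in 32 of the 37 genes, or 86.5%, beside 21.3% of the 10411 genes with a mean of at least 5. Control replicate 3 was the highest in 20 genes and Control replicate 1 in 13, beside 17.4% and 15.7% of those genes. Values below all 3 Controls were seen in 20, 34 and 10 of the 37 genes in KO replicates 1, 2 and 3, beside 26.1%, 28.1% and 23.6% of all tested genes. Without KO replicate 2 the median log2 fold change of the 37 was -0.15, with 35 negative and 2 positive, and 1 gene, Gins3, was lower at an unadjusted p under 0.05, where 3.06% of all tested genes were. Without Control replicate 2 the median was -0.51, all 37 were negative, and 25 genes had no overlap between the groups, beside 17.8% of all tested genes.

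The libraries also differed in muscle differentiation genes. Of 24 contractile and fusion genes listed, 22 were in the table under these symbols, and 0 of the 22 passed the test, with 0 at an unadjusted p under 0.05. Their log2 fold changes were positive in 20 and negative in 2, with a median of 0.75, where 47.6% of all tested genes were negative. The mean log2(value + 1) of the 22 genes was 6.54 ± 1.42 in KO and 5.68 ± 2.71 in Control (SD, n = 3 each). Their summed level was 8653, 8414 and 2899 scaled reads in KO replicates 1, 2 and 3, and 1979, 19098 and 1359 in Control replicates 1, 2 and 3. The Control library with the highest contractile level, replicate 2, was thus the Control library with the lowest mean of the replication genes. Among the KO libraries, replicate 3 had the lowest contractile level and the highest mean of the replication genes, while replicates 1 and 2 had like contractile levels but means of 6.93 and 6.52. Of 6 tested markers of fibro-adipogenic progenitors, the connective tissue cells of muscle, 3 were called higher, Col1a1, Col1a2 and Gsn. Pdgfra, another of the 6, was not called, at means of 5.28 in KO and 4.94 in Control (adjusted p = 0.953). The sum over all 9 listed markers was 901 to 1534 scaled reads in the KO libraries and 426 to 767 in the Controls. Lum and Dpt were at 0 throughout. Of 9 macrophage markers among the deposited genes, 2 passed the filter. Laptm5 was called higher, and Cd68 was not called (log2 fold change 1.37, adjusted p = 0.219) but was higher at an unadjusted p under 0.05. The sums over the 9 were 71.4 to 188 in the KO libraries and 21.9 to 36.1 in the Controls. The defining macrophage and blood cell genes Ptprc, C1qa, C1qb and Tyrobp were at 0. Of 8 endothelial markers 0 of 6 tested passed, with 1 (Tek) higher at an unadjusted p under 0.05, and their sum was 13.5 to 20.1 in the KO libraries and 6.67 to 20.1 in the Controls. The part of other cell types and of differentiation in the values of the replication genes was not tested.

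**Figure D4:**
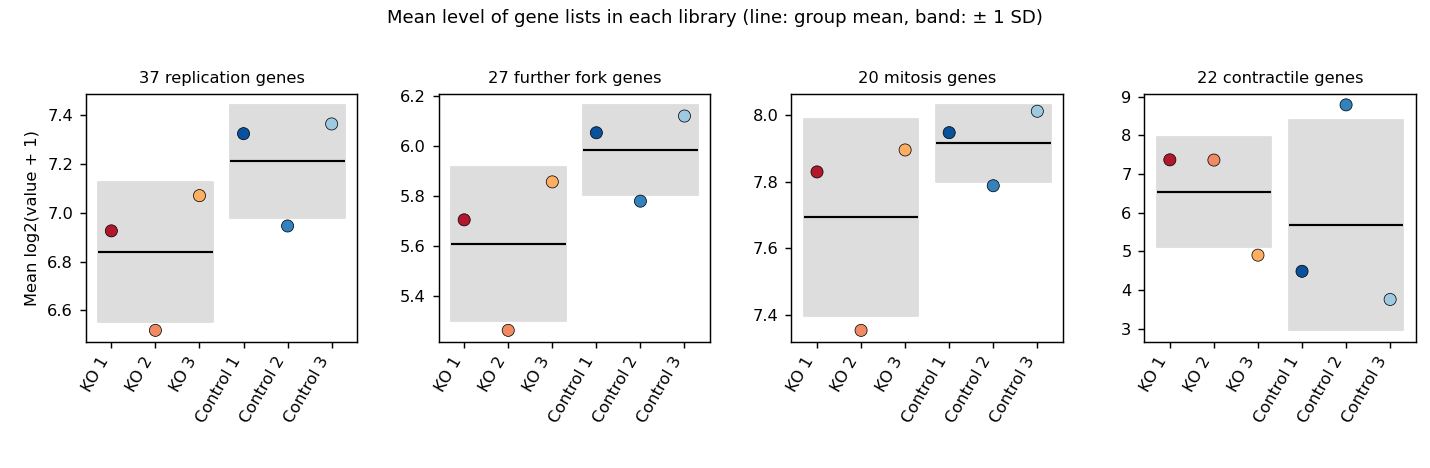
Mean log2(value + 1) in each library (vertical axes, each panel with its own range that does not start at 0) of the 37 replication genes, 27 further fork genes, 20 mitosis genes and 22 contractile genes; lines are group means and bands ± 1 SD (n = 3). Replication genes are lowest in KO replicate 2 at 6.52, and contractile genes are highest in Control replicate 2 at 8.79.

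Levels were next set per kilobase of exon, as listed in the table, so that genes could be compared with each other. In scaled reads per kilobase the highest levels were those of Rrm2, at 768 in KO and 950.5 in Control, and of Pcna, at 380.2 in KO and 466 in Control. The lowest level was that of Gins3 in KO, at 7.66, and that of Orc1 in Control, at 11.6. The order of the 37 levels was nearly the same in the groups (Spearman's rho 0.98 across genes, which share libraries and are not independent replicates). Within the MCM hexamer, whose subunits join in equal numbers, the highest level per kilobase (Mcm7) was 1.97 times the lowest (Mcm2) in KO and 2.13 times in Control. Within GINS, also built of 1 copy of each subunit, Gins4 was 4.48 times Gins3 per kilobase in KO and 2.60 times in Control. By library the ratio of the highest GINS subunit (Gins2 in KO replicate 1 and Control replicate 3, Gins4 elsewhere) to Gins3, the lowest in every library, was 4.10, 5.78 and 5.17 in KO replicates 1, 2 and 3, and 3.04, 2.85 and 2.28 in Control replicates 1, 2 and 3. These ratios rest on few reads of Gins3 and were chosen after the values were seen. The 5 RFC subunits lay within 1.45 times of each other in KO and 1.39 times in Control. Rrm2 was 5.31 times Rrm1 per kilobase in KO and 5.51 times in Control, with a range of 5.04 to 5.60 over the KO libraries and 5.28 to 5.64 over the Controls. The ratio within ribonucleotide reductase thus differed by less between the groups than between libraries of 1 group.

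**Figure D5:**
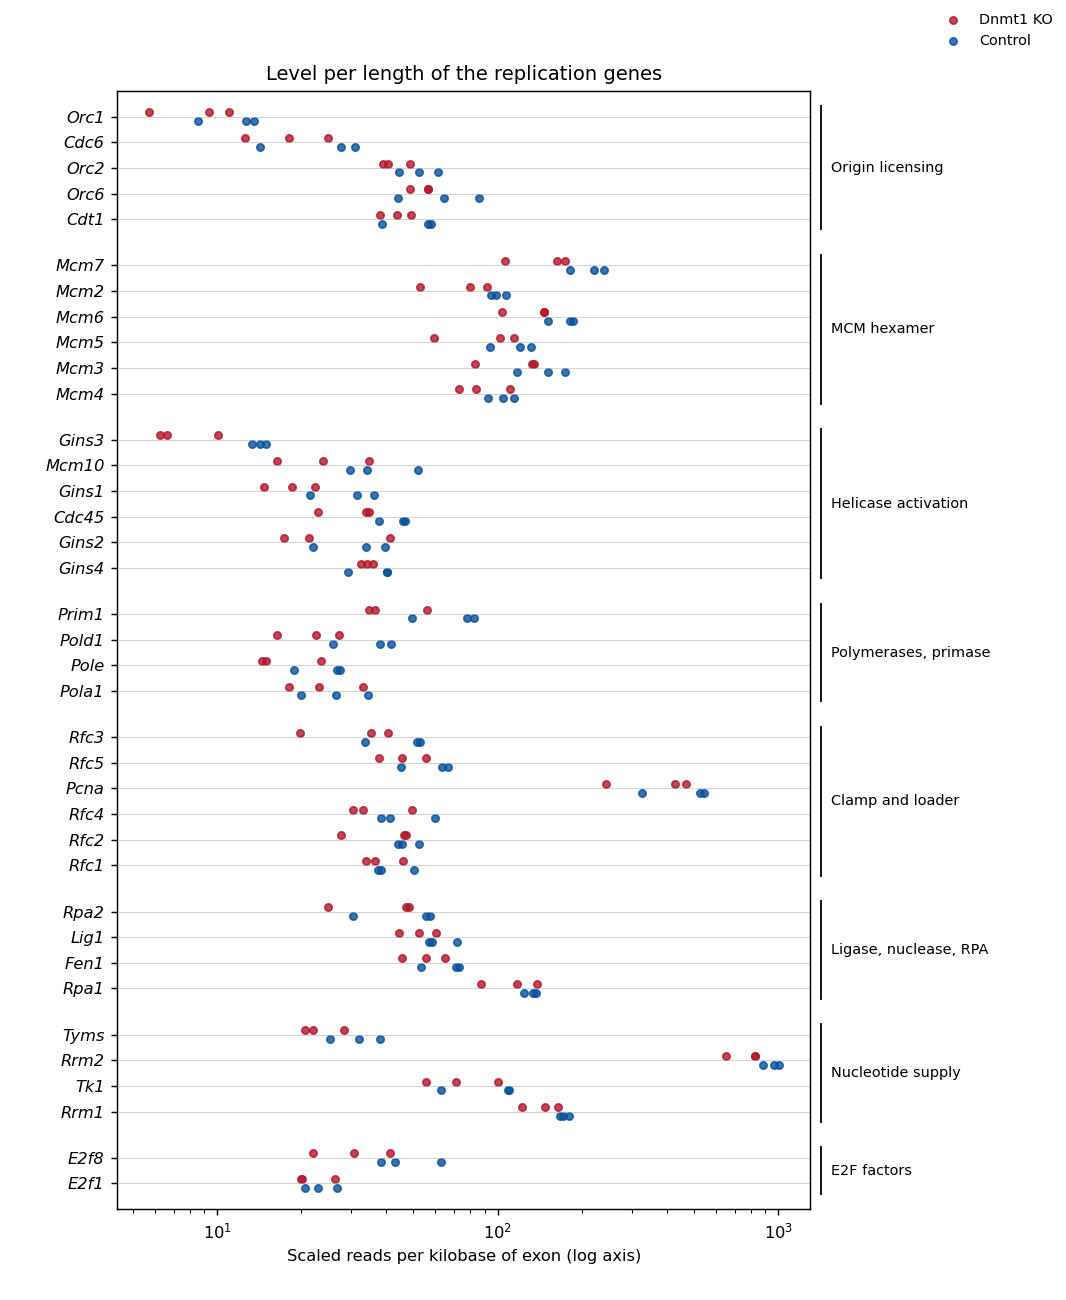
Scaled reads per kilobase of exon (horizontal log axis) of each of the 37 replication genes in the 3 Dnmt1 KO libraries (red, upper points of a row) and the 3 Control libraries (blue), grouped by role. Group means run from 7.66 in KO, for Gins3, and 11.6 in Control, for Orc1, up to 768 in KO and 950.5 in Control for Rrm2.

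Further genes of the same pathways, in lists that hold none of the 37, lay mostly on the same side. Of 80 such genes, all tested, 0 were called in either direction, 67 had a negative log2 fold change and 13 a positive one, and the median was -0.35. Over all tested genes 47.6% were negative. Of the 80, 17 were lower (background 4.8%) and 3 higher (background 10.7%) at an unadjusted p under 0.05. By edgeR 0 of them were called (0.0794% of all tested genes were called lower), and by DESeq2 1, E2f4, was called lower (0.143% of all tested genes). Among 7 further licensing genes the median was -0.21, and the smallest p belonged to Dbf4, the activator of the kinase that fires origins (log2 fold change -0.48, adjusted p = 0.237). The 27 further fork genes had a median of -0.35. Among them Asf1b, a chaperone that hands histones to new DNA, had 51.6, 46.2 and 51.7 scaled reads in the KO libraries, against 87.3, 79.0 and 80.9 in the Controls (log2 fold change -0.72, SE 0.18, adjusted p = 0.0845). Nucleotide genes numbered 10, with a median of -0.36, and the smallest p was that of Rrm2b, the reductase subunit induced by p53, which had 31.5, 32.1 and 45.5 in the KO libraries and 24.1, 25.7 and 20.7 in the Controls (log2 fold change 0.59, adjusted p = 0.308). This was the opposite sign to its S phase counterpart Rrm2, and whether the 2 genes differ in their response was not tested. Of 16 genes of the E2F, RB and CDK2 axis the median was -0.36. E2f4, a factor that acts with the RB relatives to hold S phase genes down, had 141, 109 and 135 in the KO libraries and 212, 189.5 and 241 in the Controls (log2 fold change -0.73, SE 0.17, adjusted p = 0.0613). The 20 mitosis genes had a median of -0.27, with the smallest p for Cdk1 (log2 fold change -0.49, adjusted p = 0.236), while Mki67, a general marker of dividing cells, stood at -0.02 (adjusted p = 0.979). Without Control replicate 2, Timeless, Dna2, E2f4 and Cdc25a were called lower and Rb1 higher among the 80 genes. Of all 12445 genes tested then, 0.916% were called lower, and 659 were called higher. Timeless, Dna2, E2f4, Cdc25a and Rb1 are named here after their values were seen.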

How the data were processed

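Messenger RNA of satellite cells was sequenced in 3 Dnmt1 KO and 3 Control samples. Reads were aligned with TopHat to mm10 and counted per gene with featureCounts, per the submitters' processing notes; versions, strand setting and scaling method were not found in the material at hand. The kit keeps strand, per the labels' protocols. The authors deposited a never-negative signal per gene, read counts multiplied by 1 factor per library: divided by its library's smallest nonzero value, 100% of values came out whole within 0.001. The authors' own test is deposited as a p-value and a q-value per gene.

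Kept genes (12591) reached a value of 1 in 3 or more libraries and entered a limma fit (limma 3.58.1, R 4.3.3) on log2(value + 1) with an intensity trend. The test was planned for this unit, and the script was tested on simulated data. Fold changes on this scale understate those of low genes. Words of 50 bases came from GENCODE M21 transcripts. Alternatives were other scalings and filters, 0.1 as pseudocount, a block by replicate number, omission of each library, and edgeR 4.0.16 and DESeq2 1.42.0 on whole reads of all 6 libraries. The 37 genes, the lists and the naming rule (the MCM subunits, Pcna, the E2F factors, the 2 smallest p per role, the 5 lowest and 3 highest fold changes, and the smallest p of each further list) were chosen with earlier results of these data known. Lists got no set test. Protein sequences were not used here.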

Additional observations from a re-analysis of the deposited data

How the results depend on the processing

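All 37 replication genes kept a negative log2 fold change under the 3 other scalings, both other filters, a pseudocount of 0.1, edgeR and DESeq2, and 0 were called under these, with a median of -0.36 to -0.28. The other scalings moved the median of all genes by at most 0.03. Dnmt1 stayed called in every setting. With a replicate block, 1 of the 37 was called lower (Mcm7, adjusted p = 0.0402), 4 of the 80 further genes were, and 76 of all genes were lower and 359 higher. At an unadjusted p under 0.05, 19 of the 37 were lower with that block, beside 8.77% of all genes. Whether the numbers pair the samples is not known. Deviations of same-numbered libraries correlated at -0.06, 0.23 and 0.31, and those of other KO and Control pairs at -0.357 to 0.185. With 3 libraries centred per group, these values cannot decide it. DESeq2 called 1 of the 80, E2f4, as lower (0.143% of all tested genes), and a pseudocount of 0.1 called 6 of all genes lower and 121 higher. The cause was not tested.

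Leaving out each library in turn gave 0 to 2 of the 37 called lower, 0 to 4 of the 80 called lower and 0 to 1 higher, and 1 to 114 of all genes called lower and 12 to 659 higher. The median of the 37 ran from -0.51 to -0.15, and 7 to 25 of them had no overlap, where 10.5% to 17.8% of all genes had none with a library left out and 7.81% with all 6. The sign turned in 5 genes: Pola1 ran from -0.36 to 0.0725, Rpa2 from -0.56 to 0.0476, Orc6 from -0.47 to 0.0064, Rfc1 from -0.24 to 0.0191 and E2f1 from -0.21 to 0.0161. The highest counts of calls, the 25 genes and the lowest median came without Control replicate 2; the highest median came without KO replicate 2, and without KO replicate 3 19 of the 37 had no overlap (14.7% of all genes). Without any 1 of the other 5 libraries, 1 to 2 of all genes were called lower. Genes with few reads (12 at the lowest) carry large counting errors, and genes with many reads, such as Rrm2, did not pass either; the part of depth was not tested. Between libraries of 1 group the variance over all genes was 2.39 to 12.5 times that of counting alone (chi-square per degree of freedom). Sequenced reads are not independent molecules.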
